A study of Mus musculus with 24 samples.

Results

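The 10 genes described here are products of the fibroblasts of the meninges, the membranes around the brain, and were followed across hippocampi of aged mice. They are Aldh1a2, Dcn, Lum, Ogn, Col1a1, Col1a2, Col3a1, Slc6a13, Igf2 and Slc22a6, chosen by symbol from the 24411 genes of the deposited tables, and all 10 were found. Hippocampi came from male C57BL/6 mice aged 20 months, each given 8 injections of 100 μl into the tail vein over 24 days. The saline group held 5 mice, the group given the young blood plasma preparation (young plasma) 6, and the group given the young platelet fraction 6. The platelet fraction was the material spun out of plasma of donors aged 3 months and taken up in saline. A second experiment sequenced microglia, isolated from hippocampi of aged mice with CD11b beads after saline (n = 3) or after recombinant mouse PF4 at 5 μg/ml (n = 4). All mice were perfused before dissection, and nothing in the labels says how much of the meninges or of the adjoining choroid plexus was taken with a hippocampus.

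Meningeal fibroblasts line the pia and arachnoid and follow large vessels into the brain as perivascular fibroblasts. They secrete collagen, the small leucine-rich proteoglycans that coat collagen fibrils, retinoic acid and growth factors, and they carry transporters that move amino acids and organic anions between cerebrospinal fluid and blood. Neurons and glia make little of the fibrillar collagens, so a whole hippocampus is usually read as carrying these transcripts from fibroblasts of its surface and vessels. In such bulk samples, fewer fibroblasts and less RNA per fibroblast cannot be told apart.

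Levels are normalized counts, that is, reads per gene after scaling by the size factor of each library. The hippocampal libraries held 6140510 to 10522699 counted reads and the microglia libraries 19855188 to 36342162. On the first principal component of all genes, which held 25.23% of the variance, 5 hippocampi stood apart. They were those of saline mice 7146 and 7152, young plasma mice 7147 and 7150 and young platelet fraction mouse 7148. Fold changes, calls and correlations without these 5 are given where stated. All other values are over all libraries, whether or not they moved without the 5. The reads behind single genes ranged from 10 for Col3a1 in its lowest hippocampus to 2080 for Dcn in its highest. PCR copies carry no molecular identifiers, so intervals from counts would cover counting error only.

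All 10 genes were detected in every hippocampus. Per kilobase of transcript, the order of mean levels over 17 hippocampi began with Dcn, at 480 ± 200 normalized counts per kb (SD, n = 17), which stood above every other gene of the group in 17 of 17 mice. Slc6a13 (80.1 ± 40.8) and Igf2 (73.1 ± 41.1) came next and did not separate, Slc6a13 being the higher in 9 of 17 mice. Aldh1a2 (36.8 ± 19.9), Lum (26.3 ± 8.73), Ogn (24.5 ± 8.26) and Slc22a6 (24.2 ± 15.0) formed the middle of the order. In that stretch Lum exceeded Ogn in 9 of 17 mice and Ogn exceeded Slc22a6 in 11 of 17. The collagens closed it, with Col1a2 at 15.6 ± 6.37, Col1a1 at 13.5 ± 5.5 and Col3a1 at 5.82 ± 3.23, the last below Col1a1 in 17 of 17 mice. For each gene the levels of the 3 groups overlapped, as the plot of levels by mouse shows.

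**Figure D1:**
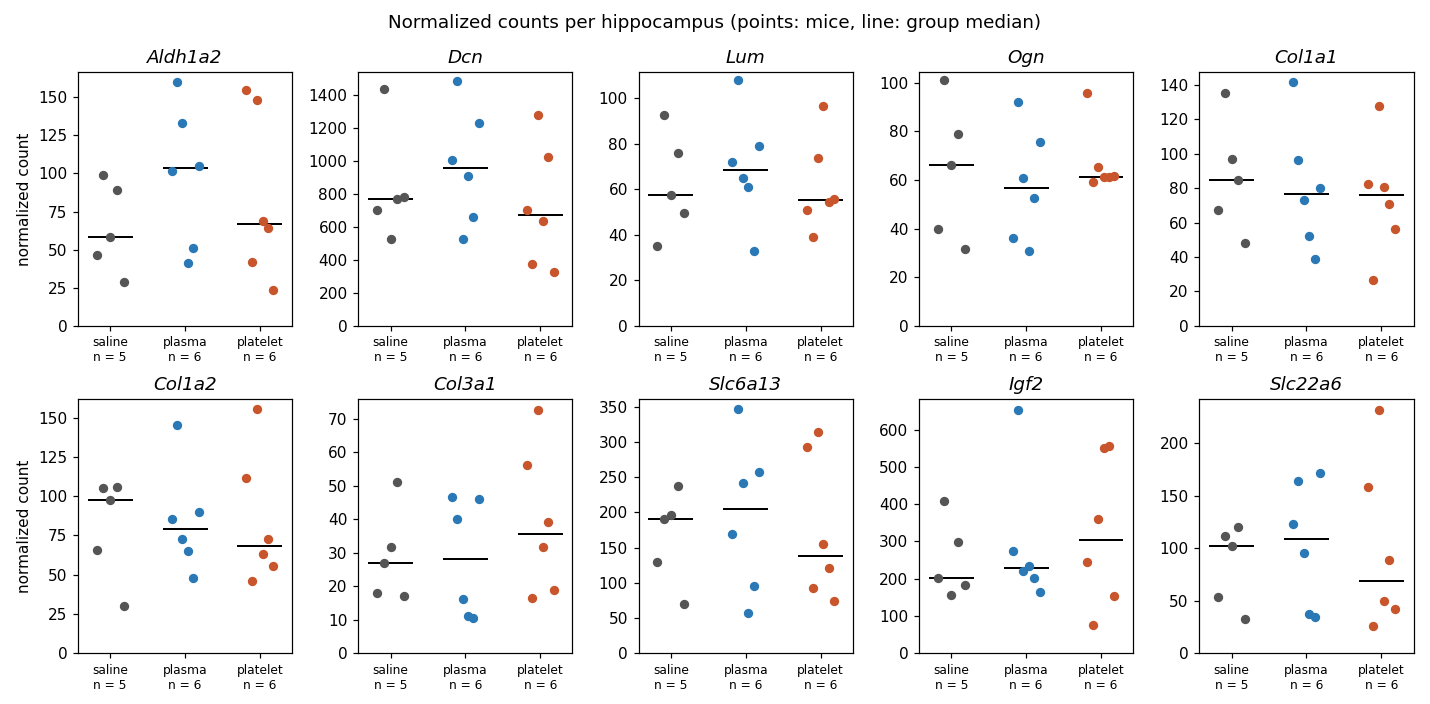
Normalized counts (y axis, linear from 0) of the 10 genes in hippocampi of the saline (n = 5), young plasma (n = 6) and young platelet fraction (n = 6) mice, with 1 point per mouse and a line at the group median. The 3 groups overlap for each gene, and the spread within a group reaches 25.6 to 231 for Slc22a6 in the young platelet fraction group.

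Aldh1a2, the retinaldehyde dehydrogenase that makes retinoic acid in the meninges (chr9:71215789-71296243, plus strand, 14 exons in its principal transcript), heads the set as its retinoid enzyme. The saline hippocampi held 46.4, 98.9, 58.1, 89.0 and 29.0 normalized counts in mice 7143, 7146, 7152, 7155 and 7596. After young plasma the lowest, median and highest were 40.9, 103 and 160, and after the young platelet fraction 23.8, 66.6 and 155. In the young plasma group 4 of 6 mice lay above every saline mouse, while mice 7156 and 7159 lay inside the saline range. The log2 fold change was 0.58 (SE 0.39, 95% interval -0.26 to 1.43, limma adjusted p = 0.9997) for young plasma and 0.22 (SE 0.46, interval -0.77 to 1.21) for the platelet fraction. The exact permutation test of the young plasma difference gave p = 0.216, the smallest of the 20 such tests run, two-sided, with an adjusted p of 0.996. Without young plasma mouse 7156 the log2 fold change was 0.80 with an unadjusted p of 0.0473.

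Decorin (Dcn, chr10:97479609-97518143), a proteoglycan that binds collagen fibrils and TGF-beta, was the most abundant of the 10. Saline mice 7143, 7146, 7152, 7155 and 7596 held 704, 1439, 527, 769 and 781 normalized counts. The young plasma group ran from 524 through a median of 957 to 1483, and the young platelet fraction group from 327 through 671 to 1278. Mouse 7146 stood above the other saline mice, and mice 7595 and 7148 lay below every saline mouse. Log2 fold changes were 0.20 (SE 0.28) for young plasma and -0.30 (SE 0.34) for the platelet fraction. Between the treatments the difference was -0.50 (SE 0.33, interval -1.21 to 0.21), and without young platelet fraction mouse 7151 it was -0.70 with an unadjusted p of 0.0431.

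Lumican (Lum, chr10:97565128-97572703), a proteoglycan that regulates the width of collagen fibrils, lies next to Dcn on the same strand. Its saline values were 34.97, 92.7, 57.3, 75.6 and 49.5 normalized counts in the same order of mice. Young plasma hippocampi held 33.0 to 108 with a median of 68.5, and platelet fraction hippocampi 38.8 to 96.3 with a median of 55.0. The log2 fold changes were 0.16 (SE 0.30) and 0.01 (SE 0.27). Osteoglycin (Ogn, chr13:49608046-49624501), another proteoglycan of this family, held 39.8, 101, 66.1, 79.0 and 31.4 in the saline mice. It ran from 31.0 to 92.1 after young plasma. In the platelet fraction group 5 of 6 mice lay between 59.3 and 65.5, and mouse 7145 held 95.7. Its log2 fold changes were -0.10 (SE 0.34) and 0.19 (SE 0.27). Ogn shares its locus with Cenpp on the opposite strand, and reads of overlapping genes could be split between them.

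The fibrillar collagens were the lowest of the 10 per kilobase. Col1a1 and Col1a2 encode the chains of type I collagen, the main fibre of the meninges (chr11:94936224-94953042 and chr6:4504814-4541544). Col1a1 held 67.5, 136, 96.9, 84.5 and 48.3 normalized counts in saline mice 7143, 7146, 7152, 7155 and 7596, 38.6 to 142 after young plasma and 26.6 to 128 after the platelet fraction. Col1a2 held 65.9, 105, 97.8, 106 and 30.2 in the same mice, 48.0 to 145 after young plasma and 46.0 to 156 after the platelet fraction. Mouse 7151 was the highest of its group for both chains and mouse 7148 the lowest. Log2 fold changes of Col1a1 were -0.14 (SE 0.32) and -0.28 (SE 0.35), and those of Col1a2 0.11 (SE 0.34) and 0.06 (SE 0.36). Per kilobase, the ratio of Col1a1 to Col1a2 averaged 1.03 ± 0.28 in saline (SD, n = 5), 0.87 ± 0.32 in young plasma (n = 6) and 0.81 ± 0.22 in platelet fraction hippocampi (n = 6). The ratios ran from 0.72 to 1.44 in saline mice, 0.60 to 1.49 and 0.52 to 1.15 in the treated groups, so the groups overlapped.

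Col3a1 (chr1:45311538-45349706), the chain of type III collagen, which is laid down beside type I in vessel walls and meninges, held 17.9, 27.0, 31.7, 51.2 and 16.9 normalized counts in the saline mice. After young plasma its values fell into a high set, 40.0, 46.0 and 46.6 in mice 7147, 7594 and 7144, and a low set, 16.0, 11.1 and 10.4 in mice 7150, 7156 and 7159. All 3 low mice lay below every saline mouse and none of the high mice lay above all of them. The platelet fraction group ran from 16.4 through 35.5 to 72.7. Log2 fold changes were -0.18 (SE 0.46) for young plasma and 0.35 (SE 0.40) for the platelet fraction, with 0.53 (SE 0.46, interval -0.46 to 1.52) between the treatments.

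Slc22a6 had the widest range of the 10 over all hippocampi, 9.06-fold, followed by Igf2 at 8.63-fold, Col3a1 at 7.02-fold, Aldh1a2 at 6.72-fold and Slc6a13 at 6.14-fold. Slc6a13, a carrier of GABA and taurine found in the leptomeninges (chr6:121300227-121337733), held 130, 190, 196, 237 and 70.1 normalized counts in saline mice 7143, 7146, 7152, 7155 and 7596. It ran from 56.4 through 205 to 346 after young plasma and from 73.4 through 138 to 314 after the platelet fraction. Slc22a6, the organic anion transporter best known from the kidney (chr19:8618039-8628299), held 53.7, 111, 102, 120 and 32.6 in the saline mice. Its lowest, median and highest were 33.9, 109 and 171 after young plasma and 25.6, 68.8 and 231 after the platelet fraction, so both ends of its range lay in that group. Log2 fold changes were 0.11 (SE 0.45) and -0.01 (SE 0.40) for Slc6a13 and 0.20 (SE 0.48) and -0.01 (SE 0.53) for Slc22a6.

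Igf2, an imprinted growth factor secreted by the leptomeninges and the choroid plexus (chr7:142650766-142666816, minus strand), held 200.9, 408, 156, 299 and 184 normalized counts in the saline mice. Young plasma hippocampi ran from 163 to 653 with a median of 227, mouse 7147 standing well above the other 5, whose highest was 275. Platelet fraction hippocampi ran from 75.6 to 556 with a median of 303, and mice 7154 and 7157 exceeded every saline mouse. The log2 fold changes were 0.15 (SE 0.33) and 0.16 (SE 0.46). Igf2os on the opposite strand and Gm49394 and Mir483 on the same strand overlap the gene.

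Set against all genes, none of the 10 passed the threshold of the study's methods, an unadjusted P of 0.05, in either direction after young plasma, where 3.35% of the 13594 genes tested did. None passed after the platelet fraction, where 3.87% of 13603 genes did, or between the treatments, where 1.9% of 13693 genes did. The test was limma on log2(normalized count + 1), whose fold changes understate those of low genes, and edgeR and DESeq2 on the recovered reads likewise called 0 of 10 in each comparison. No gene of the 10 had groups without overlap, against 0.191% of genes for young plasma and 0.257% for the platelet fraction. The median log2 fold change of the 10 was 0.13 after young plasma, beside -0.01 over all genes tested, and 0.03 after the platelet fraction, beside 0.00. Between the treatments it was -0.13, beside 0.01, with 3 of 10 genes above 0. Without the 5 libraries apart on component 1 these medians were 0.14, 0.53 and 0.31. The last thus changed sign, with 9 of 10 genes above 0 in both comparisons of the platelet fraction, and still none passed the threshold. Single genes then ran from -0.15 for Col3a1 to 0.47 for Aldh1a2 after young plasma and from -0.06 for Dcn to 0.64 for Col3a1 after the platelet fraction. Both comparisons share the saline mice. Two-sided exact permutation tests of single genes, 20 in all, gave p from 0.216 to 0.996 and adjusted p of 0.996 at the lowest, where 5 against 6 mice allow 0.00216 at the lowest. The intervals stayed wide, and differences inside their bounds were not resolved with these numbers of mice.

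**Figure D2:**
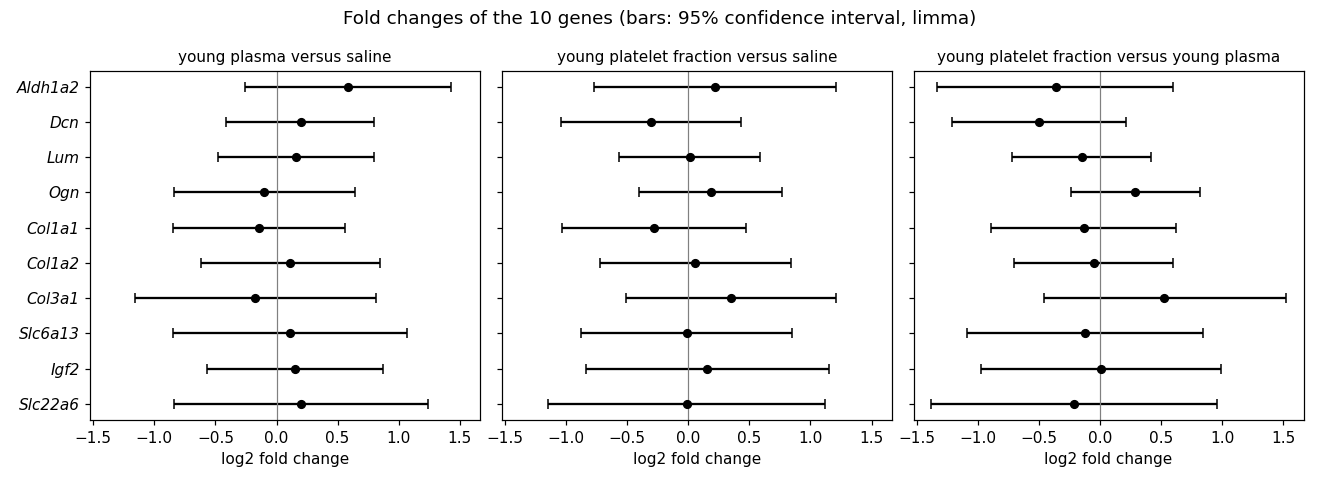
Log2 fold change (x axis) of each of the 10 genes in the 3 hippocampal comparisons, with the limma estimate as a point and its 95% confidence interval as a bar. All 30 intervals cross 0, and they reach from -1.38 for Slc22a6 to 1.52 for Col3a1 between the treatments.

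What the 10 genes shared was their spread between mice of one group. Their standard deviation of log2 values within groups ran from 0.51 for Lum to 1.03 for Slc22a6, with a median of 0.75, beside a median of 0.28 over 13906 genes. Slc22a6 varied more than 97.7% of those genes, Slc6a13 more than 95.8%, Aldh1a2 more than 95.7% and Lum more than 81.1%. Among the 10969 genes of mean 20 to 1000 normalized counts, a range that holds all 10, the median was 0.27. The same mice were high or low for many of the genes. Young plasma mouse 7147 was among the 4 highest of 17 hippocampi for 8 of the 10 genes, platelet fraction mouse 7151 for 7 and mouse 7145 for 6. Platelet fraction mouse 7148 was among the 4 lowest for 9, saline mouse 7596 for 7 and young plasma mouse 7156 for 6. High and low mice therefore occurred within each treatment.

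**Figure D3:**
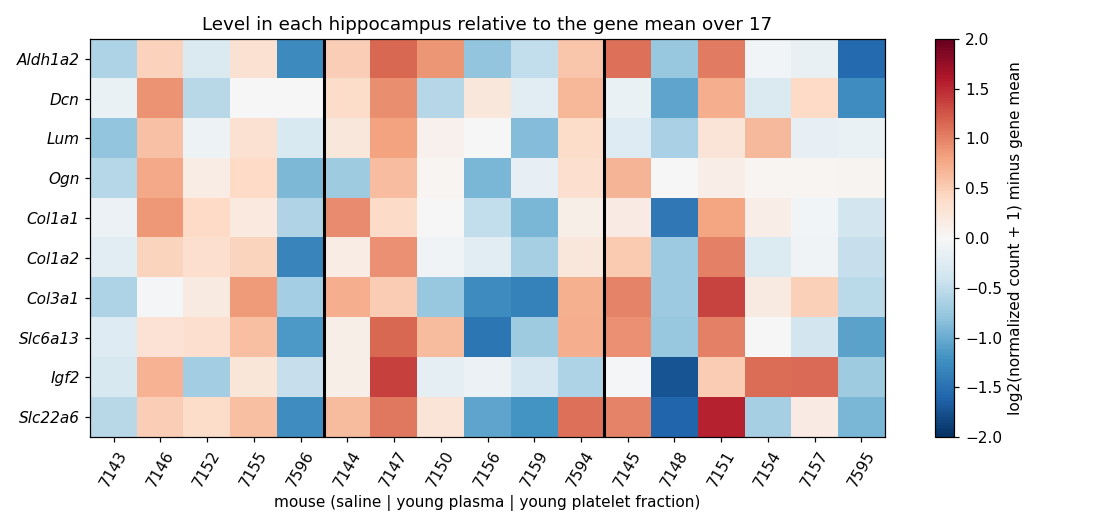
Level of each gene (rows) in each of 17 hippocampi (columns, by mouse number and group), as log2(normalized count + 1) minus the mean of the gene. Columns such as 7147 and 7151 are mostly red (high) and 7148, 7595 and 7596 mostly blue (low), within all 3 groups.

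Correlations over the 17 hippocampi, computed on log2 values with group means removed, measured this shared variation. All 45 pairs of genes had a positive Pearson r, from 0.30 to 0.95 with a median of 0.64, and 34 passed an adjusted p of 0.05 by permutation within groups. The closest pair was Aldh1a2 and Slc6a13 (r = 0.95, Spearman rho = 0.94, permutation p = 1e-05, the smallest that 100000 permutations can give, adjusted p = 0.00015). Their r was 0.91 within saline, 0.97 within young plasma and 0.98 within platelet fraction mice, and it stayed at 0.95 without the 2 mice farthest from the median. Col3a1 and Slc22a6 followed (r = 0.92, rho = 0.92, permutation p = 1e-05, adjusted p = 0.00015), and then Col1a2 and Slc22a6 (r = 0.91, rho = 0.95, permutation p = 1e-05, adjusted p = 0.00015). Without the 2 farthest mice these were 0.90 and 0.91. The chains of type I collagen correlated at r = 0.80 (rho = 0.81, permutation p = 0.00024, and 0.77 without the 2 mice).

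Igf2 and Ogn were the loosest of the set. Of the 11 pairs that did not pass, 10 held one of them, and the remaining one was Dcn with Slc6a13 (r = 0.47, adjusted p = 0.0954). Igf2 was closest to Dcn (r = 0.71, rho = 0.72, permutation p = 0.00594, adjusted p = 0.0127, 0.71 without the 2 farthest mice) and to Lum (r = 0.65). With Slc6a13 its r was 0.41 and with Ogn 0.30. Slc22a6 had the highest median r with the other 9 genes, 0.85, and Ogn the lowest, 0.49. Over all 45 pairs the median r without the 2 farthest mice was 0.58, and without the 5 libraries apart on component 1 it was 0.59. The points of these correlations share libraries, and r of the 10 genes with total reads ran only from -0.22 to 0.31 and with the score on component 1 from -0.35 to 0.45, with 0 of 10 past the adjusted threshold for either.

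**Figure D4:**
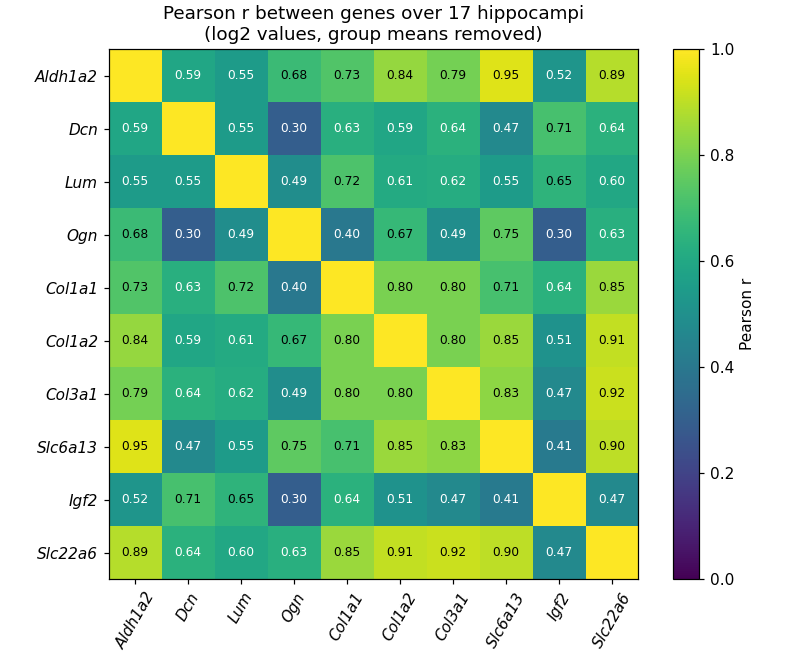
Pearson r between each pair of the 10 genes over 17 hippocampi, from log2 values with group means removed (colour from 0 to 1, value in each cell). The block of Aldh1a2, Col1a2, Col3a1, Slc6a13 and Slc22a6 lies at 0.79 to 0.95, while the Ogn and Igf2 rows hold the lowest values, down to 0.30.

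The 5 genes of the tight block have promoters that can be set side by side, which shows what their starts do and do not have in common. The RefSeq windows run from 250 bases before to 50 bases after a gene start on GRCm38.p6, and 7 of the 10 genes had one. Distances below are from these RefSeq starts, which for Slc6a13, Slc22a6 and Col1a2 differ from the gene positions given above. The Col1a2 window, from base 4505368, lies wholly inside the gene as placed above, from base 4504814. Capitals mark matches to motifs, each searched on both strands. The CCAAT box was searched as CCAAT. The letters of the TATA box were TATAAA. Those of the GC box, bound by Sp1, were GGGCGG. The half-site of nuclear receptors, retinoic acid receptors among them, was searched as AGGTCA. The windows are chr9:71215539-71215838, chr6:121300038-121300337, chr19:8617746-8618045, chr6:4505368-4505667 and chr1:45311288-45311587, all on the plus strand.
Aldh1a2: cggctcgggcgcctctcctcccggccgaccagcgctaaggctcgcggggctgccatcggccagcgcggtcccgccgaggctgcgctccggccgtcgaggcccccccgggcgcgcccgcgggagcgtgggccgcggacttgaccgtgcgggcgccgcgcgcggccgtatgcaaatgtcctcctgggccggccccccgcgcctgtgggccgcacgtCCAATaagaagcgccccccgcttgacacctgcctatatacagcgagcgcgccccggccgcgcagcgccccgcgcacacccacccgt
Slc6a13: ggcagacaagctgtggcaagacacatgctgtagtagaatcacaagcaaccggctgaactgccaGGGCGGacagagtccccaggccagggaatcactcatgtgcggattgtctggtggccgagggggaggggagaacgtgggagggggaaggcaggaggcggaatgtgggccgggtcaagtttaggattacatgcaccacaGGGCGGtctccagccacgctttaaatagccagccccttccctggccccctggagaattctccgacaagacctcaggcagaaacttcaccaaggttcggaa
Slc22a6: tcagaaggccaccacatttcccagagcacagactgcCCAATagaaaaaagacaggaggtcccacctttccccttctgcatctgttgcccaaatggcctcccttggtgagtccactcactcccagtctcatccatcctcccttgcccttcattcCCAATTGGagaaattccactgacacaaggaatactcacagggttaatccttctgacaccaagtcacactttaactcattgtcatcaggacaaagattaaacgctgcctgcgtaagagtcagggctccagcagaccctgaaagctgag
Col1a2: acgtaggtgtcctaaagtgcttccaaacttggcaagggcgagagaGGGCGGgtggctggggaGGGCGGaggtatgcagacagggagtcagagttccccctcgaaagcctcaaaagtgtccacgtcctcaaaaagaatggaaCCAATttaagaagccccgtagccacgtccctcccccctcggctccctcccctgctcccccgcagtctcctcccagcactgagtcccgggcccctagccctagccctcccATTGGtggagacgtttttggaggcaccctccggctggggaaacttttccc
Col3a1: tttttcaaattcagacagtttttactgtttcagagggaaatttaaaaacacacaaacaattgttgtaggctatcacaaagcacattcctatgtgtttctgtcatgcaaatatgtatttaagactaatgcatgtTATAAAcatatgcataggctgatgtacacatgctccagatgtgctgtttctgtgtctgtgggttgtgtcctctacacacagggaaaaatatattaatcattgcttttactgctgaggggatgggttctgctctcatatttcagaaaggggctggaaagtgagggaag
No searched motif occurred in all 5 windows. Aldh1a2 held a CCAAT box 36 bases before the gene start. Slc22a6 held CCAAT boxes 214 and 97 bases before the start, the nearer of which overlapped another on the opposite strand. Col1a2 held a CCAAT box 109 bases before its RefSeq start, another on the opposite strand at that start itself, and GC boxes 205 and 188 bases before it. Slc6a13 held GC boxes 187 and 50 bases before the start. Col3a1 held only the letters of the TATA box, 117 bases before the start. Across 32841 such windows, 37.4% held the CCAAT box, 35.7% the GC box, 16.3% the receptor half-site and 13.6% the TATA box. The receptor half-site was found in 0 of the 5 printed windows. The matches are letters only, and the closest pair, Aldh1a2 and Slc6a13, had no searched motif in common.

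The genes most like each of the 10 over the 17 hippocampi were taken from 12484 genes with a mean of 20 or more normalized counts, by the same centred r. Fibromodulin (Fmod), another small leucine-rich proteoglycan, was among the 3 most alike for 5 of the 10, Aldh1a2 (r = 0.95), Slc6a13 (0.94), Slc22a6 (0.93), Col1a2 (0.90) and Col3a1 (0.86). The betaine carrier Slc6a12, a relative of Slc6a13, headed Aldh1a2 (r = 0.95), and vitronectin (Vtn) headed Slc6a13 (0.96). Osteopontin (Spp1) headed Slc22a6 (0.95) and, after Slc22a6 itself, Col1a1 (0.84), and the prostaglandin D synthase Ptgds, abundant in arachnoid, stood next for Slc22a6 (0.94) and Col3a1 (0.87). Fibulin 1 (Fbln1) headed Dcn (0.94), followed by Nr2f2 (0.89) and Aifm3 (0.88). Matrix Gla protein (Mgp) headed Lum (0.86), followed by Uaca (0.83) and Cpxm1 (0.81), and was also near Col1a1 (0.83). Sphk1 headed Col1a2 (0.93). Over these 30 places r was 0.81 to 0.96, and without the 5 libraries apart 0.73 to 0.97. After Vtn, the nearest to Slc6a13 was Aldh1a2 (0.95). The cobalamin carrier Tcn2 (0.89), the sulphate transporter Slc13a4 (0.89) and Slc16a6 (0.88) were nearest to Igf2. For Ogn, Lyplal1 (0.89), Bend4 (0.84) and Rpp14 (0.83) were nearest, none of them a gene of the extracellular matrix.

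Lists of related genes showed which partners of these tissues moved with the 10 from mouse to mouse. For each listed gene of mean 20 or more, the median of its r with the 10 genes was taken. Over all other genes this median r had a middle value of -0.01, and 1.48% of them lay above 0.5. Of 34 other meningeal fibroblast markers, 23 reached that mean. These had a middle value of 0.47, with 10 of 23 above 0.5, among them Serping1, Efemp1 and Islr (0.76 each), Gjb2 (0.74), the elastic fibre protein Eln (0.72) and Mgp (0.71). Those below it, and so not counted, included Foxc1, Foxd1, Tbx18 and Zic1, with medians of 0.991, 0, 3.97 and 7.16 normalized counts. Transporters of the leptomeninges had 0.49, with 6 of 12 above 0.5, led by the proline carrier Slc6a20a (0.80). Of the other small leucine-rich proteoglycans 3 of 4 lay above 0.5, Fmod (0.81), biglycan (Bgn, 0.75) and Ecm2 (0.60). The claudin of arachnoid and myelin, Cldn11, lay at -0.59, the lowest of the fibroblast list, and the cadherin Cdh11 at -0.31.

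Most collagens outside the fibroblast set had lower r with it. Fibrillar and fibril-associated collagens had a middle value of 0.09, with 0 of 7 above 0.5, and enzymes of collagen synthesis and crosslinking 0.01, with 0 of 16. Collagens VI and VIII had 0.08, with Col6a2 at 0.50 and the other 3 at 0.03 to 0.11. Basement membrane collagens and laminins had 0.18, with 2 of 12 above 0.5, Nid1 (0.58) and Col18a1 (0.52). Retinoid genes had 0.14, with 1 of 15 above 0.5, the retinol carrier Rbp4 (0.64). The insulin-like growth factor axis had 0.11 and TGF-beta genes 0.00, with none above 0.5 of 11 and 14. Without the 5 libraries apart on component 1 the fibrillar collagens had 0.43, with 2 of 7 above 0.5, led by Col5a1 (0.58), and the insulin-like growth factor axis 0.30, with 3 of 11 above 0.5. Basement membrane genes then had 0.32, led by Nid1 (0.76), and collagens VI and VIII -0.06, led by Col6a2 (0.64). Retinoid genes had 0.05, with 2 of 15 above 0.5, led by Cyp1b1 (0.85), which lay at 0.43 over all 17. Of the 14 TGF-beta genes only Ctgf (0.67) then lay above 0.5. Other fibroblast markers then had 0.45, leptomeningeal transporters 0.58 and proteoglycans 0.66. Markers of border macrophages (0.60), endothelium (0.51) and mural cells (0.48) then lay as high or nearly so, so high r was not particular to fibroblast genes. These are descriptions over genes of the same 17 libraries, which are not independent of each other.

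**Figure D5:**
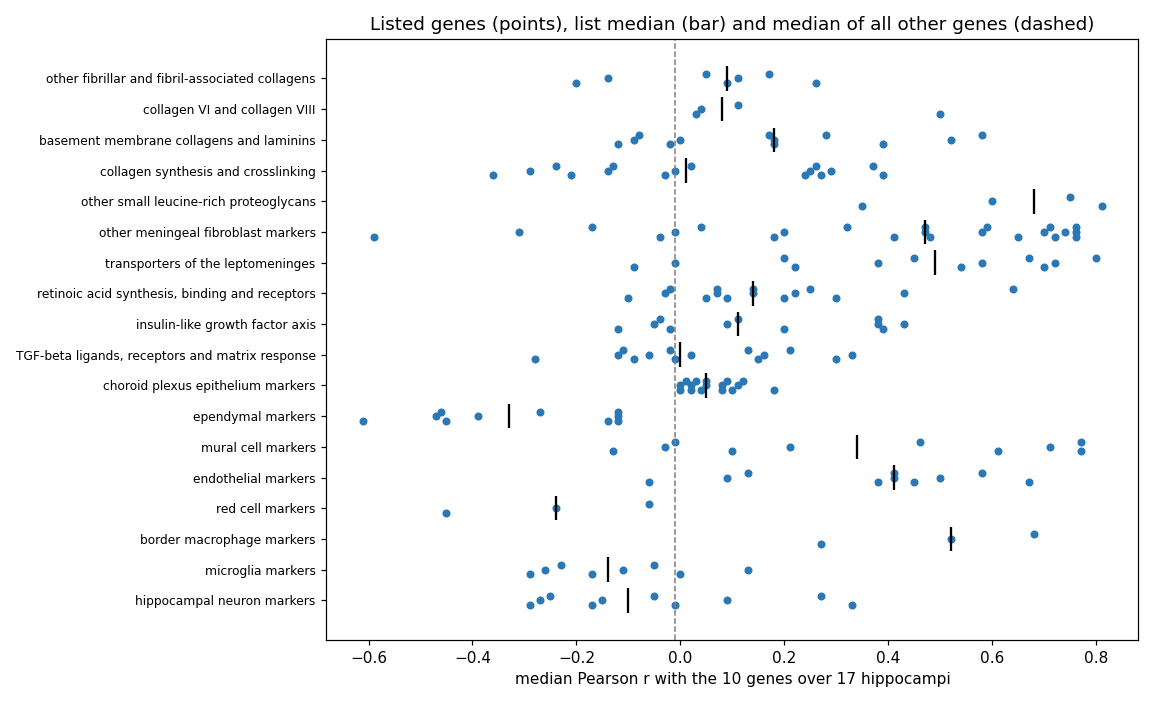
Median Pearson r of each listed gene with the 10 genes over 17 hippocampi (x axis), for 18 lists (rows). Points are genes of mean 20 or more normalized counts, bars the middle value of the list, and the dashed line the middle value of all other genes, -0.01. Proteoglycans (middle value 0.68), leptomeningeal transporters (0.49) and fibroblast markers (0.47) lie to the right. Border macrophage (0.52), endothelial (0.41) and mural markers (0.34) lie there too, and ependymal markers to the left.

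Markers of other cells of the surface and of vessels were summed per library. Mural cell markers, those of smooth muscle and pericytes, ran from 2063 to 2878 summed normalized counts in saline, 1989 to 3116 in young plasma and 1980 to 3727 in platelet fraction hippocampi, with 12 of 13 genes at a mean of 10 or more. Their sum correlated with 7 of the 10 genes past the adjusted threshold over 120 such relations, most with Slc6a13 (r = 0.93, rho = 0.92, permutation p = 1e-05, adjusted p = 0.0006). Vtn made up 48.7% of the sum, and without it the sum passed with 6 of 10. Among the single mural genes, Acta2 and Vtn (median r 0.77 each), Myh11 (0.71) and Tagln (0.61), which mark contractile smooth muscle apart from Vtn, lay high. Pdgfrb (-0.03), Abcc9 (-0.01), Notch3 (-0.13) and Higd1b (0.10) did not, and Kcnj8 (0.46) and Rgs5 (0.21) lay between. This contrast was weaker without the 5 libraries apart on component 1, where Notch3 was the lowest of the 10 mural genes at 0.2 and 5 lay above 0.5. Border macrophage markers, with 6 of 10 genes at a mean of 10 or more and sums of 198 to 295, 183 to 284 and 133 to 360, correlated with 5 of the 10, most with Col3a1 (r = 0.86, rho = 0.90, permutation p = 3e-05, adjusted p = 0.0009). Endothelial sums (3098 to 3983, 3327 to 4492 and 3126 to 4078, all 10 genes at a mean of 10 or more) passed with 2 of 10. Without the 5 libraries apart on component 1, the median r with the 10 genes was 0.80 for mural, 0.78 for border macrophage and 0.58 for endothelial sums, beside 0.81, 0.65 and 0.57 with them. The part of vessel or surface tissue in these correlations was not tested.

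The choroid plexus, which lies against the hippocampus, had no common direction with the set over all hippocampi. Its 16 markers, all at a mean of 10 or more, summed to 3537 to 60489 in saline, 7628 to 89256 in young plasma and 6540 to 98991 in platelet fraction hippocampi. The sum passed with Igf2 alone (r = 0.70, rho = 0.68, permutation p = 0.00229, adjusted p = 0.0162, 0.58 without the 2 mice farthest from the median), and its median r with the 10 genes was 0.01. Without Ttr, the most abundant marker, r with Igf2 was 0.72. Without the 5 libraries apart on component 1 the median r of the choroid plexus sum was -0.42, from -0.60 for Slc6a13 to 0.57 for Igf2, and that of the ependymal sum -0.60. Ependymal sums (235 to 406, 220 to 689 and 192 to 830) passed with 0 of 10 and had a median r of -0.35. Red cell sums (798 to 928, 843 to 1122 and 947 to 1905) likewise passed with 0. Only 3 of 6 red cell genes had a mean of 10 or more, and Bpgm made up 80.1% of the sum, so it mostly describes Bpgm (696 to 951). The haemoglobin gene Hba-a1 ran from 27.7 to 813 and had a median r of -0.06 with the 10 genes. The sum of microglia markers passed only with Dcn (r = -0.68, rho = -0.67, permutation p = 0.00561, adjusted p = 0.0306), and that of hippocampal neuron markers with 0 of 10.

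Other collagens were then compared by treatment at the same unadjusted threshold, and rose and fell are used of genes past it. Over all genes tested, 3.35% passed it after young plasma, 3.87% after the platelet fraction and 1.9% between the treatments. The calls of the lists below were not tested against these shares. Of 8 fibrillar and fibril-associated collagens tested, 0 passed after young plasma, and Col5a3, a chain of type V collagen, rose after the platelet fraction from 12.4 ± 5.03 to 21.4 ± 7.03 (log2 fold change 0.76, SE 0.31). The most abundant of them, Col9a3, averaged 540 ± 241 in saline, 670 ± 472 in young plasma and 729 ± 546 in platelet fraction mice, and Col11a2 67.0 ± 31.6, 58.9 ± 16.1 and 69.1 ± 16.2. None of 5 collagen VI and VIII genes passed in either comparison, with Col6a1 at 183 ± 86.9, 251 ± 96.5 and 213 ± 87.7 and Col8a1 at 130 ± 72.6, 149 ± 126 and 158 ± 117. Of 13 basement membrane genes, 0 passed after young plasma and the laminin chain Lama2 rose after the platelet fraction (103 ± 29.7 to 165 ± 48.9, log2 fold change 0.67, SE 0.23). Lamb2 stood at 417 ± 91.5, 429 ± 133 and 466 ± 126, and Lamb1 at 321 ± 97.0, 295 ± 104 and 358 ± 120.

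Among 19 genes of collagen synthesis and crosslinking, Bmp1, the protease that removes the carboxyl propeptide of collagen, fell in both comparisons with the shared saline mice. Its log2 fold change was -0.38 (SE 0.15) after young plasma and -0.48 (SE 0.16) after the platelet fraction. Adamts14, which cleaves the amino propeptide, averaged 7.03 ± 1.44 in saline and 19.2 ± 9.66 in platelet fraction mice (log2 fold change 1.21, SE 0.34). It reached 10 normalized counts in 0 of 5 saline and 5 of 6 platelet fraction hippocampi, so it entered the test only through the group where it was high, and it was not tested for young plasma. The abundant Sparc averaged 2371 ± 72.7, 2460 ± 241 and 2499 ± 183, and P4hb 1721 ± 79.9, 1848 ± 90.6 and 1832 ± 73.6. None of these genes passed the adjusted threshold of 0.05 in limma, where the smallest adjusted p over all genes was 0.9997 after young plasma and 0.7852 after the platelet fraction. DESeq2 on the recovered reads called 0 and 11 genes at that adjusted threshold, none of them among the 10, and 41 in microglia. Without the 5 libraries apart on component 1, Bmp1 no longer passed the unadjusted threshold after young plasma (-0.18, SE 0.14). After the platelet fraction Bmp1, Col5a3 and Lama2 still did. Adamts14 also passed, which adds no support, as it entered the test only through that group.

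The remaining lists held few calls, to be read beside the same shares of all genes. None of the 5 or 6 tested proteoglycans passed, with Prelp at 721 ± 85.6, 733 ± 204 and 778 ± 154 and Fmod at 184 ± 113, 173 ± 100 and 208 ± 190 in saline, young plasma and platelet fraction mice. Of 25 other meningeal fibroblast markers, only Cldn11, also a component of myelin, rose in both comparisons with saline (887 ± 219, 1274 ± 328 and 1443 ± 302), though without the 5 libraries apart only after the platelet fraction, while Cdh11 stood at 595 ± 74.8, 596 ± 82.7 and 677 ± 101. Leptomeningeal transporters gave 0 calls against saline, of 13 and 12 tested. Slco1a4, which is also on the endothelial list, stood at 449 ± 66.5, 430 ± 53.9 and 434 ± 83.1. Slc13a4 stood at 365 ± 157, 442 ± 262 and 462 ± 250. Between the treatments the sulphate transporter Slc26a2 was higher after the platelet fraction (log2 fold change 0.35, SE 0.15), a call lost without those libraries (0.30, SE 0.19). Retinoid genes gave 0 of 18 and 0 of 17, with Aldh1a1 at 644 ± 186, 608 ± 176 and 623 ± 88.2 and Dhrs3 at 487 ± 60.4, 471 ± 78.2 and 464 ± 48.0.

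In the insulin-like growth factor axis, 0 of 13 genes passed after young plasma, and Igfbp5, a binding protein of the ligands, fell after the platelet fraction (291 ± 39.7 to 231 ± 51.6, log2 fold change -0.35, SE 0.16), 1 of 12 tested. Igfbp4 stood at 1075 ± 98.9, 1113 ± 58.6 and 1062 ± 157 and Igfbp2 at 797 ± 552, 917 ± 741 and 1116 ± 861. None of 15 TGF-beta genes passed in either comparison, Smad3 standing at 780 ± 196, 684 ± 180 and 709 ± 83.3 and Ltbp4 at 537 ± 198, 571 ± 158 and 550 ± 133.

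In isolated microglia the fibroblast genes were sparse. The microglia markers were enriched, Csf1r at a median of 253 CPM (counts per 1000000 reads) in hippocampus and 10451 in microglia, and the neuronal Snap25 was at 3677 and 4.03. Col3a1 had no read in any of 7 libraries and Slc6a13 a single read in library PF4-1. Aldh1a2 was found only in library PF4-3 (47.4 normalized counts), and Slc22a6 only in libraries Saline-2 (47.2) and Saline-3 (1.23). Dcn was at 463, 1.23 and 0 in the saline libraries and 38.1, 208, 0 and 0 in the PF4 libraries. Lum was at 146, 0 and 34.3 in the saline libraries and 0 in all PF4 libraries. Ogn was at 0, 72.8 and 0 against 0, 39.5, 3.27 and 11.4, Col1a2 at 13.7, 0 and 0 against 67.0, 0, 0 and 18.9, and Col1a1 was at or below 9.64 throughout. Between libraries of one group, most of these genes went from no read to their highest value.

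Igf2 was the exception in having a read in 7 of 7 microglia libraries, at 586, 2.47 and 34.99 in saline libraries 2, 3 and 4 and 6.09, 3236, 60.5 and 2491 in PF4 libraries 1 to 4. The libraries Saline-2, PF4-2 and PF4-4, the highest for Igf2, were also the highest for choroid plexus markers, whose sums were 276683, 714312 and 514422 against 937 to 2015 in the other 4. The part of choroid plexus RNA in these values was not tested. With 4 of the 10 genes passing the filter on low values, none was called at the unadjusted P of 0.01 of the study's methods, beside 0.389% of 11320 genes. The log2 difference of Igf2 was 2.54 (SE 2.51, interval -3.07 to 8.16, limma adjusted p = 0.9816). Those of Col1a2, Ogn and Dcn were 1.31 (SE 2.21), 0.70 (SE 2.28) and -0.09 (SE 2.90).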

How the data were processed

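Hippocampi and isolated microglia were sequenced in bulk, 1 library per mouse or microglia preparation, and grouped by the deposited labels. Alignment by the authors used STAR 2.7.3a and the mm10 genome, RSEM 1.3.1 gave gene counts, and DESeq2 1.38.0 (R 3.6.1) scaled them. The signal the authors deposited is this scaled count, with size factors taken out per library. The methods name a modified Smart-Seq2 protocol and the labels a strand-specific poly(A) kit, and which was used is not settled. The deposited columns of fold changes and p-values hold the authors' own comparisons and were not used. Values were whole multiples of 1 read (within 0.01 of a read in 100% of values), which gave back whole reads. The saline libraries shared by both hippocampal tables had the same reads, and platelet fraction values were multiplied by 0.9949 to join them. Means given beside a platelet fraction test are on the scale of that table.

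Each comparison was a limma 3.58.1 fit (R 4.3.3) of its 2 groups on log2 values with a pseudocount of 1 and a mean-variance trend. Genes entered with a normalized count of 10 in 5 hippocampal, or 3 microglia, libraries. P-values were adjusted by Benjamini-Hochberg over all genes. The fits were also run on simulated counts, where the changed genes were none as low as Col3a1, and no result here rests on that run. Thresholds were an unadjusted P of 0.05 (hippocampus) and 0.01 (microglia). The alternatives tried were edgeR 4.0.16 and DESeq2 1.42.0 on recovered reads, TMM or library total scaling, a filter of 50 or none, a pseudocount of 0.5 or 5, a joint fit of the 3 hippocampal groups, each library left out in turn, and, for microglia, the replicate block. Leaving out the 5 libraries apart on component 1, for fits and correlations, and marker sums without Vtn or Ttr, were chosen after seeing the data.

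The 10 genes and all lists were chosen with earlier results of these data known. Named were the 10 genes, the 3 genes most like each, the 2 most abundant of each related list with any past the threshold, and marker lists as sums. Genes called out for their r were chosen after their values were seen. Gene positions and transcript lengths are from GENCODE M21 on GRCm38, the assembly of mm10, and promoters from RefSeq on GRCm38.p6. Same-numbered saline and PF4 microglia libraries came from differently treated mice, and nothing shows that they were paired in another way. P-values judge group differences and correlations against the spread between these libraries.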

Additional observations from a re-analysis of the deposited data

Results flagged for a closer look

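In 4 of 37 groups of 4 to 6 libraries, 1 library lay far from the others for its gene. Ogn in young platelet fraction mouse 7145 was at 95.7 normalized counts, the other 5 mice of the group lying between 59.3 and 65.5. Chance gives such a gap in about 1 of 20 groups of continuous values, a rate that does not apply where all other libraries are at 0. In PF4 microglia, Aldh1a2 was at 47.4 in library PF4-3, Col1a1 at 9.64 in library PF4-2 and Slc6a13 at 0.761 in library PF4-1, the last from a single read, and each gene had no read in the other 3 libraries, so these gaps follow from the zeros.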

How the results depend on the processing

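Of the 10 genes, 0 passed the threshold in each hippocampal comparison with any of the alternatives on pseudocount, filter, scaling or tool. Leaving out 1 library at a time gave 0 to 1 genes for young plasma (Aldh1a2 without young plasma mouse 7156), 0 for the platelet fraction, and 0 to 1 between treatments (Dcn without platelet fraction mouse 7151). Their log2 fold changes changed sign against the main value in 22 of 209 alternative values for young plasma, 37 of 209 for the platelet fraction and 26 of 219 between treatments, none of them past the threshold. The median log2 fold change of the 10 ran from -0.13 (without saline mouse 7596) to 0.28 (without saline mouse 7146) after young plasma and from -0.15 (without saline mouse 7596) to 0.21 (without platelet fraction mouse 7148) after the platelet fraction. The direction of either median therefore rests on single mice. Over all genes, leaving out 1 library gave 300 (without young plasma mouse 7156) to 621 calls for young plasma, against 456, with 301 without saline mouse 7146. It gave 347 (without platelet fraction mouse 7157) to 876 (without 7145) for the platelet fraction, against 527, with 797 without 7148. Between treatments it gave 209 to 446 (without 7148), and in microglia 22 (without PF4-4) to 129 (without Saline-4). Calls between treatments were 473 without the filter, against 260, and those in microglia 179 with DESeq2, against 44, and the cause was not tested. The median r of the 45 pairs was 0.61 when group means were kept and 0.64 after TMM scaling. Same-numbered microglia libraries shared little beyond their number (r of 0.174, 0.061 and 0.002), and the replicate block gave 32 calls, none of them among the 10 genes. Read depth limits Col3a1 most, with 10 to 71 reads per hippocampus.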
